A study of Danio rerio with 7 samples.

Results

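Module 1 is the longest of 8 gene lists deposited for single heart muscle cells of injured zebrafish, and its annotation chart holds 6 terms on actin. The actin cytoskeleton genes described here are the distinct identifiers that these 6 terms list, without integrins, laminins, numbered collagens, arhgap and arhgef genes, filamin C, XIRP2 and PDLIM3. The terms list 74 identifiers, and 10 fell under the genes left out (ITGB1, ITGB4, ITGAV, ITGA5, itgae.2, ARHGEF10, arhgef4, FLNC, XIRP2 and PDLIM3). This left 64 of the 1543 genes of module 1 and of the 4449 genes of all modules. A symbol was at hand for 63 of them, and ENSDARG00000019442 had none. Of the 63 symbols, 36 are written in capitals, as human genes are, and some of these may stand for zebrafish genes with another name. Matches of markers and second identifiers by such a symbol carry that doubt.

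Actin is a protein that joins from single molecules into filaments. Nucleators start filaments, formins and Ena/VASP proteins lengthen them, crosslinkers bundle them, and myosins pull on them. In heart muscle, cardiac actin forms the thin filaments of the sarcomere, while cytoplasmic actin lies under the membrane, at cell contacts and in the lamellipodium, the flat edge that a crawling cell pushes forward. Cardiomyocytes that re-enter the cell cycle after injury in zebrafish take sarcomeres apart, and actin filaments outside the sarcomere carry cell shape and movement.

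The cells came from adult zebrafish hearts that carry the nppa:mCitrine reporter, taken 7 days after cryoinjury, a freezing lesion of the ventricle. The reporter marks cells that switch on nppa, a natriuretic peptide gene, and the labels name the sorted cells border zone cardiomyocytes. Of 7 plates with 384 wells and 1 cell per well, 3 held wildtype cells and 4 held cells of fish mutant for hmga1a, a gene of a chromatin protein. The reporter, the injury and the day are shared by both groups, and the labels do not give the allele or how many fish a plate holds. The module lists carry identifiers without values per plate or cell, so depth, replicate error and direction between the genotypes are not known from them, and nothing below says that a gene was higher or lower in either group.

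The labelled cell type was set against marker genes. Of 12 cardiomyocyte markers, 8 were found in a module: MYL7, TNNT2, tnnc1a and actc1a in module 7, nppa in module 5, nppb in module 2, RYR2 in module 4, and myh6 in module 6. An identifier with the symbol MYH6 also matched, in module 4, and this symbol in capitals may stand for another zebrafish gene. A TNNC1 identifier also matched, in module 6, and none of these genes lay in module 1. Module 1, with 34.7% of all module genes, held some markers of other cells. Of the 3 endothelial markers found of 6, cdh5 lay in module 1, and flt1 and robo4 in module 3. Of the 4 leukocyte markers found of 5, ptprc and LCP1 lay in module 1, and CORO1A and SPI1, under 2 identifiers, in module 3. Of the 2 fibroblast and epicardial markers found of 6, COL1A1, under 2 identifiers, lay in module 1 and COL1A2 in module 4. All 4 smooth muscle markers were in a module, with TAGLN, MYH11 and CNN1 in module 1 as members of the actin set and acta2 in module 7. A second TAGLN identifier lay in module 5. The matches of TAGLN, MYH11 and CNN1 rest on symbols in capitals. As members, LCP1, TAGLN, MYH11 and CNN1 are in module 1 by the rule, and the counts are small, so nothing is read from them. The part of such cells in the actin set was not tested.

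The 6 actin terms overlap and carry 2 layers. The terms actin binding, actin filament binding, actin cytoskeleton organization, actin filament bundle assembly and cortical actin cytoskeleton come from Gene Ontology and held 47 members. The KEGG pathway Regulation of actin cytoskeleton held 24, and only 7 of these were also in a Gene Ontology actin term: ACTN1, pfn2b, CYFIP1, tmsb4x, MYH11, EZR and zgc:158689. The other 17 pathway members were 15 signalling genes, such as receptors, kinases and exchange factors upstream of actin, with actb1 and NCKAP1. By term, 31 members were in actin binding, 20 in actin filament binding, 18 in actin cytoskeleton organization, 6 in actin filament bundle assembly and 5 in cortical actin cytoskeleton. Of the 64, 38 stood in 1 term, 15 in 2 and 9 in 3. ACTN1 stood in 5 and actn3b in 4, both of them alpha-actinin genes.

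**Figure D1:**
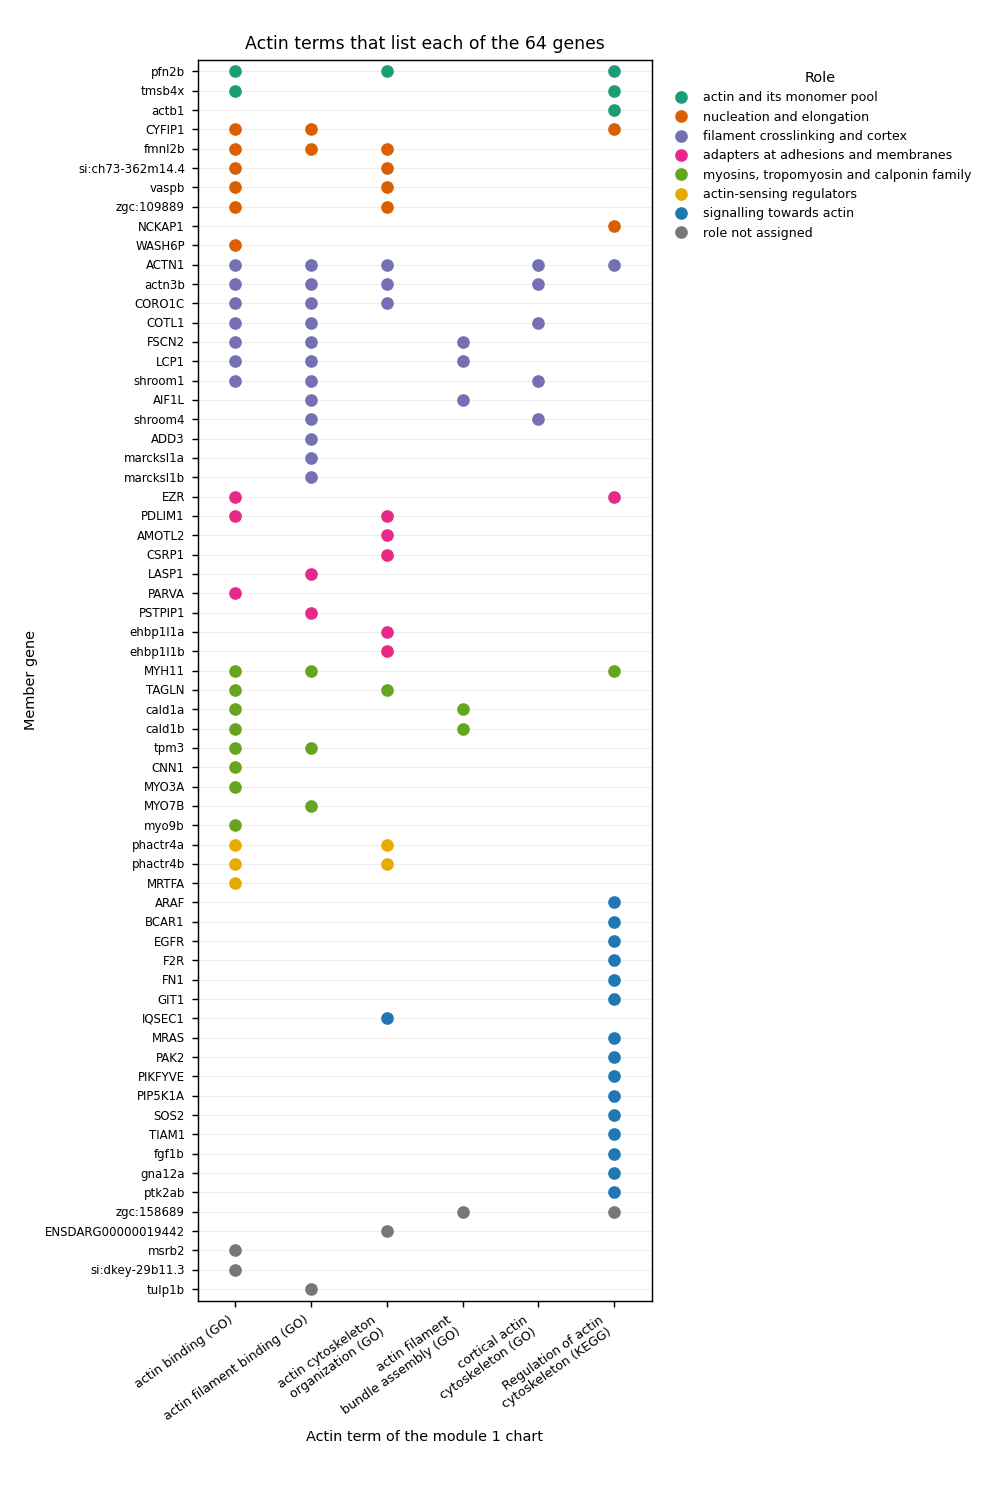
Each row is 1 of the 64 genes, each column 1 of the 6 actin terms of the module 1 chart, and a dot marks that the term lists the gene, with its color giving the role. The 16 signalling genes stand in the KEGG column, with IQSEC1 as the exception, while crosslinkers and nucleators spread over the Gene Ontology columns, with NCKAP1, in the KEGG column alone, as the exception.

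Genes of actin itself and of its pool of single molecules numbered 3. actb1 encodes cytoplasmic beta-actin, tmsb4x encodes thymosin beta 4, which holds actin monomers back from filaments, and pfn2b encodes a profilin, which hands monomers to growing ends. actb1 was annotated to the pathway and not to actin binding, which names the partners of actin. tmsb4x was listed in 7 terms of the chart, among them heart looping and atrioventricular valve morphogenesis.

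Nucleation and elongation of filaments had 7 members. CYFIP1 and NCKAP1 are subunits of the WAVE (SCAR) complex, which switches on branched nucleation at the lamellipodium. The unnamed genes si:ch73-362m14.4 and zgc:109889 stood beside them in the term SCAR complex. These 4 were all genes of module 1 in that term, of 10 in the background, and the authors' deposited table gives a fold enrichment of 7.97 with an unadjusted p of 0.0116 and an adjusted p of 0.307. The 2 unnamed genes were listed in the same 6 terms. The further members were fmnl2b, a formin, vaspb, an Ena/VASP protein that lengthens barbed ends, and WASH6P, whose symbol belongs to the WASH family of nucleation promoters on endosomes. WASH6P was also listed in endosome and recycling endosome terms.

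Crosslinking and the cortex had 12 members. ACTN1 and actn3b encode alpha-actinins, which tie filaments together, and all 9 terms of actn3b were among the 14 of ACTN1. In mammals ACTN3 is a Z-disc protein of fast skeletal muscle. LCP1, or L-plastin, and FSCN2, a fascin, bundle filaments, and AIF1L is a calcium-binding protein that bundles them. COTL1 is a coactosin-like filament binder, CORO1C is a coronin of the cell edge, and ADD3 is an adducin that caps filaments and ties them to spectrin. marcksl1a and marcksl1b encode membrane proteins that bind filaments, and shroom1 and shroom4 belong to a family that shapes the apical cell surface. Of the 12, the shroom genes, COTL1 and both actinin genes made up the cortical term.

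Adapters at adhesions and membranes had 9 members. PARVA is alpha-parvin of integrin adhesions, LASP1 is a LIM and SH3 protein of focal adhesions, and PDLIM1 and CSRP1 are LIM proteins that bind alpha-actinin. EZR, or ezrin, ties the membrane to filaments, PSTPIP1 is an F-BAR adapter best known from leukocytes, and AMOTL2 is an angiomotin relative at cell junctions. ehbp1l1a and ehbp1l1b are relatives of EHBP1, an adapter between endocytosis and actin. The latter pair was listed in 1 term of the whole chart each, actin cytoskeleton organization.

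Myosins, tropomyosin and the calponin family also had 9 members. MYH11 is named for the smooth muscle myosin heavy chain, MYO3A, MYO7B and myo9b are unconventional myosins, and myo9b carries a GTPase-activating activity as well. tpm3 encodes a tropomyosin, which lies along filaments and governs access to them. cald1a and cald1b encode caldesmons, and TAGLN and CNN1 encode transgelin and calponin, proteins of contractile filaments that are abundant in smooth muscle. The cardiac actin gene actc1a and the heavy chain genes myh6, myh7ba and myh7bb were not in the set and lay in other modules. FLNC, XIRP2 and PDLIM3 lay in module 1 and in its actin terms but were left out by the rule. Nothing is thus read on how far the actin genes of module 1 are muscle genes.

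Actin-sensing regulators were MRTFA, phactr4a and phactr4b. Their proteins carry RPEL motifs that bind actin monomers. MRTFA is a cofactor of the transcription factor SRF and enters the nucleus when the monomer pool falls, and Phactr4 steers protein phosphatase 1. MRTFA had no other term in the chart than actin binding.

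Signalling towards actin had 16 members. At the cell surface stood FN1, the matrix protein fibronectin, the receptors EGFR and F2R (the thrombin receptor), and the growth factor gene fgf1b. ptk2ab encodes focal adhesion kinase, BCAR1 its scaffold partner p130Cas and GIT1 an Arf regulator of adhesion turnover. PAK2 is a kinase downstream of Rac and Cdc42, and TIAM1 is an exchange factor that activates Rac. PIP5K1A and PIKFYVE are lipid kinases, SOS2, MRAS and ARAF belong to the Ras pathway, gna12a encodes a G protein subunit, and IQSEC1 is an exchange factor for Arf6. The role of 5 further members was left unassigned: msrb2, a methionine sulfoxide reductase, tulp1b, a tubby-like gene, si:dkey-29b11.3, zgc:158689 and ENSDARG00000019442.

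Outside the actin terms, members were also listed in terms of the cell edge and of adhesions. The term lamellipodium listed 10 genes of module 1, and 7 were members: phactr4a, phactr4b, CORO1C, CYFIP1, zgc:109889, si:ch73-362m14.4 and ACTN1. Focal adhesion as a cell component listed 11, of which 6 were members (BCAR1, ptk2ab, LASP1, PARVA, actb1 and ACTN1). The KEGG term Focal adhesion listed 31 genes of module 1, of which 11 were members. For it the authors' deposited table gives a Benjamini-adjusted p of 0.0198. Of 5 genes in ruffle membrane 3 were members, LCP1, CORO1C and AIF1L. Cytoskeleton held 22 of the 64 members (34.4%), against 51 of all 1543 module 1 genes (3.31%). The authors' deposited table counts 1026 annotated genes of module 1 for components, so genes without annotation lower the latter share. Such terms name the same biology as the rule, so their overlap is a description.

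The layers were also counted within other terms, beside 47 of 64 members (73.4%) with a Gene Ontology actin term and 17 of 64 (26.6%) in the set through the pathway alone. MAPK signaling pathway held 7 members, gna12a, SOS2, EGFR, PAK2, ARAF, fgf1b and MRAS, and ErbB signaling pathway held 5, ARAF, ptk2ab, EGFR, PAK2 and SOS2. All of these were among the 17 genes in the actin set through the pathway alone. MAPK signaling held 10.9% of members and 2.4% of module 1 genes, and ErbB signaling 7.81% and 0.778%. Both are KEGG pathways, as is the pathway through which the 17 entered, so this overlap is a description. The shares of module 1 genes for these and the further terms divide by all 1543 genes, while every member has a term by the rule. The authors' deposited table counts only 400 annotated genes of module 1 for KEGG, 1026 for components and 993 for processes. Genes without annotation thus lower the shares of module 1, and the size of the contrasts is not read. The 7 members in lamellipodium and the 4 in adherens junction (shroom1, shroom4, PDLIM1 and EZR) had a Gene Ontology actin term, the layer that holds most members. Lamellipodium held 10.9% of members and 0.648% of module 1 genes, and adherens junction 6.25% and 0.778%. Other terms drew on both layers. Of the members in plasma membrane 12 had a Gene Ontology actin term and 7 did not, in cell migration and in Salmonella infection 4 had one and 2 did not, and in the component focal adhesion 3 had one and 3 did not. In the KEGG term Focal adhesion 3 had one and 8 did not. Plasma membrane held 29.7% of members and 10.8% of module 1 genes, and cell migration 9.38% and 1.3%. The broader terms went the other way. Membrane held 18.8% of members and 28.1% of module 1 genes, and integral component of membrane 6.25% and 26%. Salmonella infection held 9.38% and 1.75%, the component focal adhesion 9.38% and 0.713%, and the KEGG term Focal adhesion 17.2% and 2.01%. Angiogenesis had 8 members: cald1a, cald1b, AMOTL2, IQSEC1 and ENSDARG00000019442 with a Gene Ontology actin term, and ptk2ab, fgf1b and GIT1 through the pathway. These were 12.5% of members, beside 1.62% of module 1 genes in that term. A member was listed in a median of 6 terms of any kind, from 1 to 23, and ptk2ab had the most. No test of the layers was made.

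**Figure D2:**
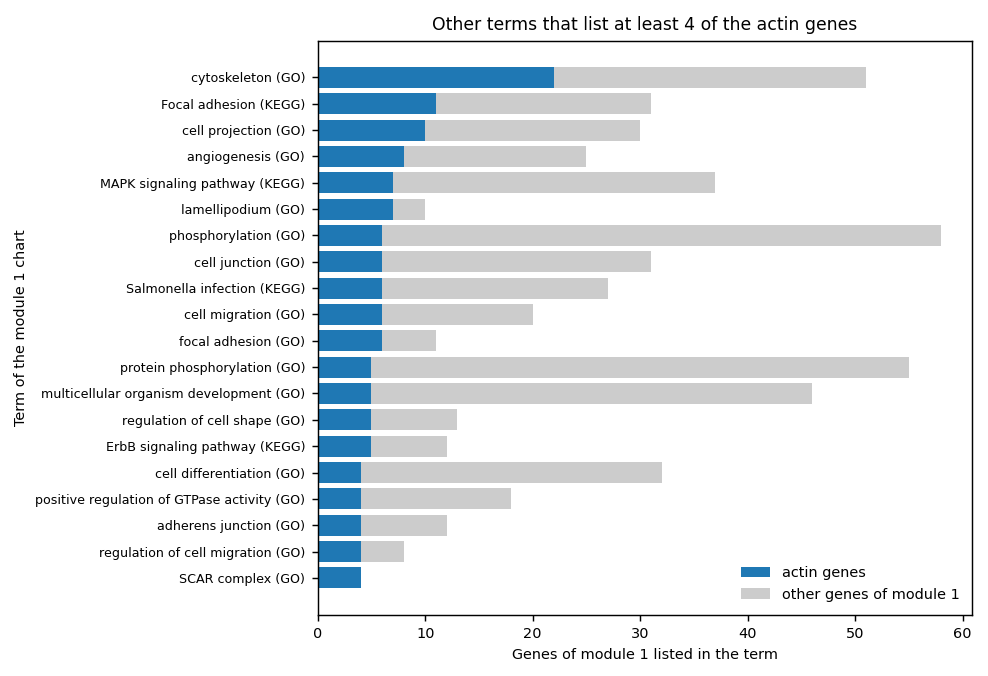
Bars give the number of module 1 genes in other terms of its chart that list at least 4 members, with the members in blue and the rest in grey, for Gene Ontology components and processes and KEGG pathways of up to 60 module 1 genes. Members make up 7 of 10 genes in lamellipodium and 4 of 4 in SCAR complex, and 6 of 58 in phosphorylation.

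In the authors' deposited table, 1 of the 6 actin terms had a Benjamini-adjusted p under 0.05. This was actin cytoskeleton organization, for which the authors' deposited table gives an adjusted p of 0.0442, a fold enrichment of 2.87 and 21 of the 150 background genes (14%). The background for this term held 20385 annotated genes and was not limited to the 4449 genes of the modules. How the folds would change against genes expressed in these cells was not tested. Among all 202 listed terms of module 1, 9 passed that threshold (4.46%). For actin binding the authors' deposited table gives 34 of 353 genes (9.63%), a fold of 1.99 and an adjusted p of 0.0888. The pathway stood at 30 of 307 genes, a fold of 1.68 and an adjusted p of 0.148 in the authors' deposited table. Actin filament binding (fold 1.67), actin filament bundle assembly (fold 3.52) and cortical actin cytoskeleton (fold 2.93) had adjusted p values of 1, 1 and 0.956 in the authors' deposited table. These counts take in the 10 genes left out here, of which XIRP2 and PDLIM3 were in both actin cytoskeleton organization and actin binding.

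Other charts listed actin terms as well. Under the same words and omissions, the charts held 3 of the 600 genes of module 2 and 8 of the 357 of module 3. They held 20 of 475 in module 4, 17 of 494 in module 5 and 13 of 438 in module 6, beside 64 of 1543 in module 1. Only the chart of module 1 listed the KEGG pathway, through which alone 17 of its 64 genes entered. The charts of modules 7 and 8 listed no such term. Charts list terms with an unadjusted p up to 0.1, so genes of terms above it are not counted. The counts are thus no measure of all actin genes in a module. In the authors' deposited table, actin binding had a fold of 2.27 in module 4 (13 genes), 2.44 in module 5 (15 genes) and 1.84 in module 6 (10 genes), beside 1.99 in module 1. In the Gene Ontology function category, to which actin binding belongs, the authors' deposited table counts 931 annotated genes in module 1. It counts 313, 336 and 297 in modules 4, 5 and 6, where the adjusted p of actin binding was 0.916, 0.31 and 0.973. For actin cytoskeleton organization the authors' deposited table gives folds of 2.87, 2.44, 2.76 and 2.46 for modules 1, 4, 5 and 6. No test of the difference between modules was made.

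**Figure D3:**
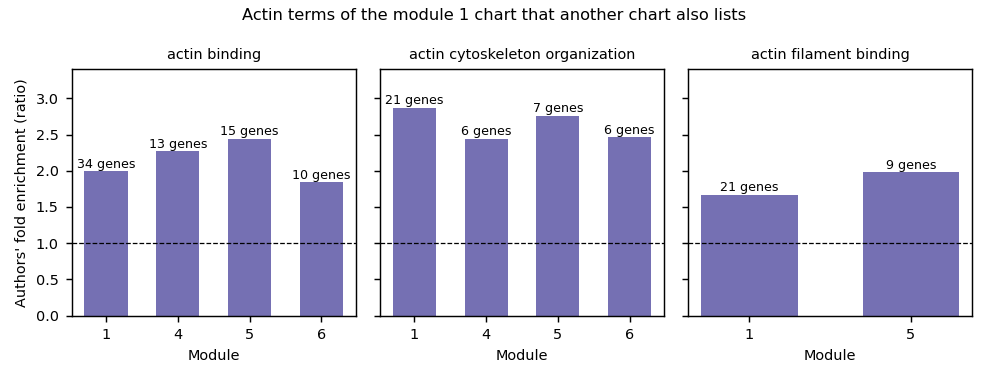
Bars give the authors' fold enrichment, the share of module genes in a term over the share of background genes, for the 3 actin terms of module 1 that another chart also lists, with the number of genes above each bar and a dashed line at 1. For actin binding module 1 has most genes (34) and a fold of 1.99, between 1.84 in module 6 and 2.44 in module 5.

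Genes of those charts, chosen after their place was seen, give examples of what the terms listed. Module 5 listed actin filament depolymerization with mical1, mical2b and MICAL2, enzymes that oxidise actin and take filaments apart, and its actin binding genes included GSN and FLII of the gelsolin family, which sever and cap. Module 4 listed the myosins MYH9, MYO1D and MYO6, the muscle heavy chains myh7ba, myh7bb and MYH6, both plectins (pleca and plecb) and xirp1. Module 3 listed actin filament organization with CORO1A, WAS and myo1ca. For this term the authors' deposited table gives a fold of 5.32 and an adjusted p of 0.0262. These values rest on 10 genes, of which 4 fall under the families left out here. CORO1A and WAS are best known from leukocytes. Module 6 listed SPTAN1, a spectrin, TLN2, a talin, DAAM1, a formin, and myh6. Module 2 listed ROCK1, FHOD3 and fhod3a. The lists also had names in common. A DAAM1 identifier was in actin binding and actin cytoskeleton organization in module 5 as well, and myosins were listed in modules 3 to 6, with MYO1E and MYO18A in module 5 and MYO1C in module 6.

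A wider list of actin genes showed where the rest of the machinery lay. It holds 282 symbols in 12 roles and matched 116 genes of the modules. Of these, 39 lay in module 1 (33.6%), beside 34.7% of all module genes. The 39 comprised 33 members, which are in module 1 by the rule, and ABI1, FLNC, XIRP2, PDLIM3, lims1 and ANXA1, so the share is a description and nothing is read from it. Module 2 and module 5 held 19 each (16.4%), beside 13.5% and 11.1% of all genes.

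The wider list has roles of its own, which differ in part from those given to the members above. CORO1C and ADD3, placed above with crosslinking and the cortex, count here under severing, capping and disassembly. PDLIM1, an adapter above, counts here under bundling and crosslinking. By role, the share in module 1 ranged from 0% for the Arp2/3 complex to 75% for monomer binding and elongation. Of 23 bundling and crosslinking genes, 12 lay in module 1 (52.2%), the 9 members already named and FLNC, XIRP2 and PDLIM3. The actin terms of module 1 list all 12, the last 3 among the genes left out. Of 10 tropomyosin and calponin family genes 5 lay there, and of 4 genes of monomer binding and elongation 3 did. These 5 and 3 are all members, which are in module 1 by the rule, so nothing is read from these shares. Of 13 severing, capping and disassembly genes, 2 lay there (CORO1C and ADD3), and 6 lay in module 5: GSN, FLII, a further CORO1C, mical1, MICAL2 and mical2b. None of the 4 Arp2/3 complex genes in a module lay in module 1. ACTR2 and ARPC5 were in module 2, ARPC1B in module 4 and ARPC1A in module 7. These counts are small, the list was chosen with the modules known, and no test was run on them.

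**Figure D4:**
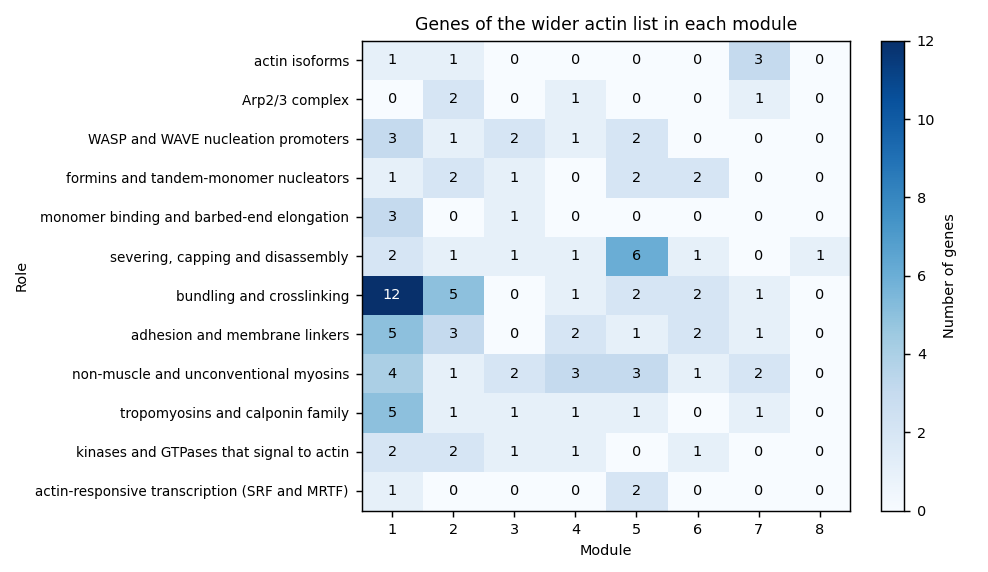
Cells give the number of genes of the wider actin list in each module (columns) by role (rows), darker for more genes. Module 1 holds 12 of 23 bundling and crosslinking genes and 0 of 4 Arp2/3 genes, while module 5 holds 6 of 13 severing, capping and disassembly genes. Of the 39 genes in the column of module 1, 33 are members, which are there by the rule.

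Actin isoforms were spread over modules 1, 2 and 7. actb1 lay in module 1 and its near-identical partner actb2, also a beta-actin, in module 2. No source used here says how reads that match both were counted, and the place of each is uncertain. The muscle actins ACTA1, acta2 and actc1a lay in module 7, as did MYL7, TNNT2 and tnnc1a. The heavy chain genes myh7ba and myh7bb lay in module 4, with an identifier under the symbol MYH6 in capitals, and myh6 lay in module 6. The WAVE complex was divided as well. Of the 9 WASP and WAVE nucleation promoters of the wider list, 3 lay in module 1 (33.3%), beside 34.7% of all module genes. CYFIP1, NCKAP1 and 1 ABI1 identifier were in module 1, with the unnamed genes si:ch73-362m14.4 and zgc:109889 of the term SCAR complex. A further ABI1 and the small subunit brk1 were in module 5. WASF3 was in module 4 and NCKAP1L, the blood cell relative of NCKAP1, in module 3.

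Relatives of the members fell partly in module 1 and partly elsewhere. Copies were taken as genes whose symbols were the same after 1 final a or b was dropped from each, and 11 such pairs had at least 1 member. In 5 pairs both genes lay in module 1: phactr4a and phactr4b, ehbp1l1a and ehbp1l1b, cald1a and cald1b, marcksl1a and marcksl1b, and 2 identifiers of TIAM1, of which 1 was a member. The phactr4 copies shared all of their 10 terms in the chart and the marcksl1 copies all 4, while cald1b had heart looping beyond the 3 terms it shared with cald1a. In 6 of the 11 pairs the genes were split (54.5%), beside 80 of the 104 pairs with any gene of module 1 (76.9%), and no test of the difference was made. Second identifiers of CORO1C and TAGLN lay in module 5, of ADD3 in module 6 and of F2R in module 4, amotl2b lay in module 4 and MRTFB in module 5. MRTFA and MRTFB are also separate genes in mammals and not copies that arose in fish. MYO7B and myo7bb of module 3 differ by an added b and are not among the 11 pairs.

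By the start of the symbol, 25 of the 59 members with a gene name (42.4%) had a like-named gene in another module. Among all 1092 named genes of module 1 the share was 41%, so the count of members is near the background. Each of these families has a member in module 1 by the rule. The formins FMNL3 and FMNL1 lay in modules 5 and 3, FSCN1 in module 5, parvg in module 5, actn2b in module 7, tpm4a in module 7, and CNN2 and CNN3 in modules 2 and 3. actn2b, whose mammalian counterpart is the cardiac alpha-actinin of the Z-disc, lay in the module of the muscle actins. ACTN1 and actn3b are members and so in module 1 by the rule, and nothing is read from this contrast. A few like-named genes are not relatives, such as LCP1 and lcp2a, or ptk2ab and ptk6a. Relatives whose symbols are built otherwise, such as MSN (moesin, a relative of ezrin) and tagln3a in module 4 or EHBP1 in module 5 beside the ehbp1l1 genes, are not in these counts. With every gene counted that shares the letters before the first number, whatever follows, the count was 27 of 59 (45.8%), beside 47.2% of the named genes of module 1.

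**Figure D5:**
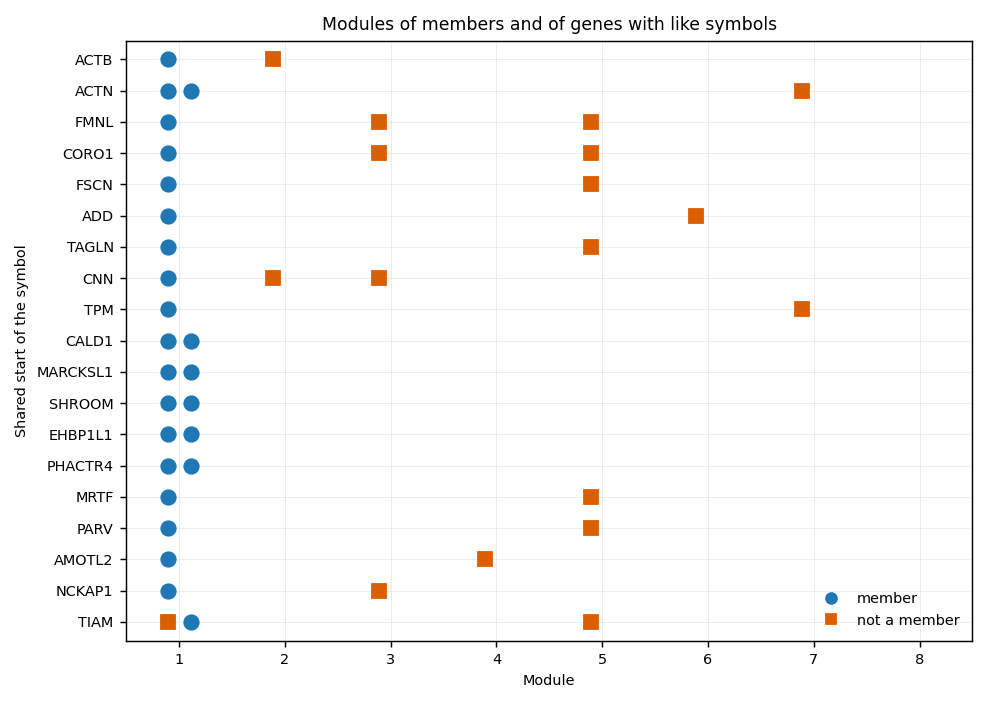
Each row is a group of genes with the same start of the symbol, each column a module, blue circles mark members and orange squares other genes. Caldesmon, marcksl1, shroom, ehbp1l1 and phactr4 genes lie in module 1 alone, while the other rows also have a gene in another module. The rows were chosen by hand, so the share of rows in module 1 alone has no meaning. Groups such as the myosins, which also lie in other modules, are not shown.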

How the data were processed

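Single cells from 3 wildtype and 4 hmga1a mutant plates were prepared by SORT-seq with CEL-Seq2 chemistry, per the labels' protocols. The submitters' processing notes name Seurat with no version or role. Not given in the sources used here are an aligner, a genome build, cell filters and the module method. Deposited were 8 identifier lists and 8 annotation charts.

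Per the file headers, the authors give counts of genes per term, in the module and in a background, and a percent of module genes per term. The fold enrichment is the authors' ratio of the 2 shares, checked on the values of the terms used. Unadjusted and Benjamini-adjusted p-values were deposited by the authors. Charts list terms with p up to 0.1, so a term missing from a chart is not a term with 0 genes.

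Symbols came from a name table that covered 3651 of the 4449 module genes (82.1%). The wider list was matched ignoring case and allowing a final a or b. Like-named genes are copies, genes alike but for the last letter, or symbols made of letters, 1 number and up to 2 letters that share the first letters. Roles were assigned by hand. Of the module 1 chart, 1 term that lists some members is not reported here. The text names every member with a symbol, and of the wider list genes by role and module; genes named from the charts of other modules were chosen after their place was seen. Members, lists and roles were chosen with earlier results of these data known. Without values per plate, the genotypes were not compared, and no test was run. Genes are not replicates. Python 3.11.15, pandas 2.3.3, SciPy 1.17.1 and matplotlib 3.10.9 were used.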

Additional observations from a re-analysis of the deposited data

How the results depend on the processing

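The set of 64 genes depends on the words that choose the terms. It held 31 genes with only actin binding terms and 23 with only actin filament terms, and 43 with only actin cytoskeleton terms. It held the same number, 64, with terms at a deposited p under 0.05, and 74 with the genes left out put back. The share of the wider list in module 1 was 33.6%, 33.3% with exact symbols and 28.1% (background 33.6%) when each list was cut after its first ascending stretch. It was 7.23% without the members, which removes genes of module 1 alone. With only named genes as background, 33.4% of genes lay in module 1. Like-named genes in another module were counted for 25 members, for 6 when only copies were counted, and for 27 with any ending after the first number. With an added final a or b also counted, 7 of 12 copy pairs were split. The alternatives for like-named genes and copy pairs were chosen after seeing the data. The others were planned, with earlier results of these data known. No paired analysis was possible because the files hold no values per plate, and leaving out each plate was not run for the same reason. Symbols missing for 17.9% of module genes limit every count by name.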

Other observations

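The list of module 1 is written in 5 ascending runs of identifiers; no source used here says what the runs stand for. The first run holds 1085 of the 1543 genes (70.3%) and 46 of the 64 actin genes (71.9%). The second run, of 156 genes (10.1%), holds 8 members (12.5%): CORO1C, FSCN2, MYH11, TIAM1, NCKAP1, MRAS, AIF1L and shroom4. The third run, of 149 genes (9.66%), also holds 8: ACTN1, actn3b, fmnl2b, CNN1, cald1a, zgc:158689, ADD3 and PSTPIP1. The fourth run, of 152 genes (9.85%), holds 2 members (3.12%), SOS2 and MYO7B, and the fifth, of 1 gene, holds none. No test was made of these shares. Both alpha-actinin genes are thus in the same run, while cald1b lies in the first and cald1a in the third.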
